A study of Sus scrofa with 21 samples.

Results

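The genes described are 10 named genes of the Z disc, the M band and the structures linked to them, taken from the 25880 genes of a count table of pig heart RNA. CSRP3, TCAP, DES, MYOZ2, ACTN2, XIRP2, ANKRD1 and MYOM1 were found by the gene name in that table, and XIRP1 and MYOM2, whose names are blank there, by gene ID through a reference name table. Each symbol had 1 row, and all 10 passed the filter on low counts that left 15359 genes to be tested. Myocardial infarction (MI) was made on postnatal day 1 by tying off the left descending coronary artery for good. MI hearts were collected at day 7 (3 pigs), day 14 (3 pigs) and day 28 (2 pigs). Control hearts, titled naive, were collected at day 1 (2 pigs), day 3 (2 pigs), day 7 (3 pigs), day 14 (3 pigs) and day 28 (3 pigs). The treatment protocol describes the age-matched normals as having had all of the surgery but the ligation, whereas the titles say naive. All pigs came from 1 commercial farm, were hand-fed milk and were kept in an incubator. The tissue was the border zone of ischemia in MI hearts and the corresponding region in naive hearts, and each library was total RNA of 1 pig. Sex, litter and batch are not given in the labels.

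The sarcomere of heart muscle is bounded by Z discs, where actin filaments from neighbouring sarcomeres are cross-linked by alpha-actinin, and is centred on the M band, where myomesins tie myosin filaments and titin together. Around these scaffolds sit adaptor and signalling proteins that bind titin, actin or calcineurin, and intermediate filaments that hold neighbouring myofibrils in register. Several of the genes are known as stress-responsive genes of the heart, and mutations in several cause cardiomyopathy in humans.

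Library totals ran between 37002909 and 95559841 counts. The summed level, in CPM (counts scaled to library size), of 11 cardiomyocyte markers with a row (none of them among the 10 genes, MYH6 not matched) ran between 41706 and 104046 over the 21 libraries, and TNNI3, a gene that ventricular muscle uses, was listed at 0 in every library. Skeletal muscle markers summed to 1.95 to 13.5 CPM, with MYLPF, MYOD1 and PAX7 at 0 throughout. In 4 libraries (replicate 3 of MI day 7 and of naive day 14, and replicate 2 of MI day 28 and of naive day 28), the gene with the ID ENSSSCG00000035520 was at 5.06 to 12.1 CPM, against 2819 to 8808 CPM in the other 17. The labels give no reason for this split, which was found in earlier work on these data. Values without these 4 libraries are given where they change a call, and for some uncalled genes. Other uncalled values shifted too. The log2 fold change of MI over naive hearts went from -0.03 to 0.57 for MYOZ2 at day 28. That of MYOM2 at day 7 went from 0.76 to 0.12.

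The promoter windows of CSRP3, XIRP2 and ANKRD1 are shown first, because these genes had the largest differences after MI described below. Each window is 250 bases before and 50 bases after the annotated start, read 5′ to 3′ on the gene's strand from the RefSeq annotation of Sscrofa11.1. The CSRP3 window is chr2:40219038-40219337 (plus strand), that of XIRP2 is chr15:73665626-73665925 (plus strand), and that of ANKRD1 is chr14:102612808-102613107 (minus strand). Capitals mark matches to an M-CAT element (CATTCC or GGAATG), to a TATA element (TATAAA or TTTATA), to a MEF2 site or to a CArG box, searched on both strands.
CSRP3: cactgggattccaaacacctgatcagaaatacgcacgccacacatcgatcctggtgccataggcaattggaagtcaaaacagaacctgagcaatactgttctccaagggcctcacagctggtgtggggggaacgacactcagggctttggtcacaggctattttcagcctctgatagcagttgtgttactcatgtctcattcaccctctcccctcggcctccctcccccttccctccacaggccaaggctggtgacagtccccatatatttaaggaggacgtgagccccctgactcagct
XIRP2: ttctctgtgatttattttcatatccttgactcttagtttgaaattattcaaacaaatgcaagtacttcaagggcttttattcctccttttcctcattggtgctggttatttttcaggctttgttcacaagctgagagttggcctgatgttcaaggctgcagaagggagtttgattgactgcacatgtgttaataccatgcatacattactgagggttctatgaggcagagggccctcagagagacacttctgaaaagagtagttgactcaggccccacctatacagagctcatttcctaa
ANKRD1: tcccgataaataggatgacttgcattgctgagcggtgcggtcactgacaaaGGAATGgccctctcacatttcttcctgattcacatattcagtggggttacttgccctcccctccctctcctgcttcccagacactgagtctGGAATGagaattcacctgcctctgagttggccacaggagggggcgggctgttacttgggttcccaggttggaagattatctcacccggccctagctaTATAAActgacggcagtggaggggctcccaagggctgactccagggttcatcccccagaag

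Positions are those of a match's first base, counted from 1 at the annotated start and negative before it. ANKRD1 held 2 M-CAT matches, at -199 and -108, and a TATA element at -11. The CSRP3 and XIRP2 windows held none of the 4 motifs, nor did those of TCAP, DES and ACTN2. A MEF2 match was present at -30 in MYOZ2, at -109 in XIRP1, and at 12 in MYOM2, where it overlaps a TATA match. Over the windows of 9 of the genes, MYOM1 not included, MEF2 matches were in 3 of 9, against 2.9% of all 19527 annotated windows, M-CAT matches in 1 of 9 against 11.8%, TATA matches in 2 of 9 against 10.9%, and CArG matches in 0 of 9 against 1.5%. These shares describe letters in a window and not binding.

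**Figure D1:**
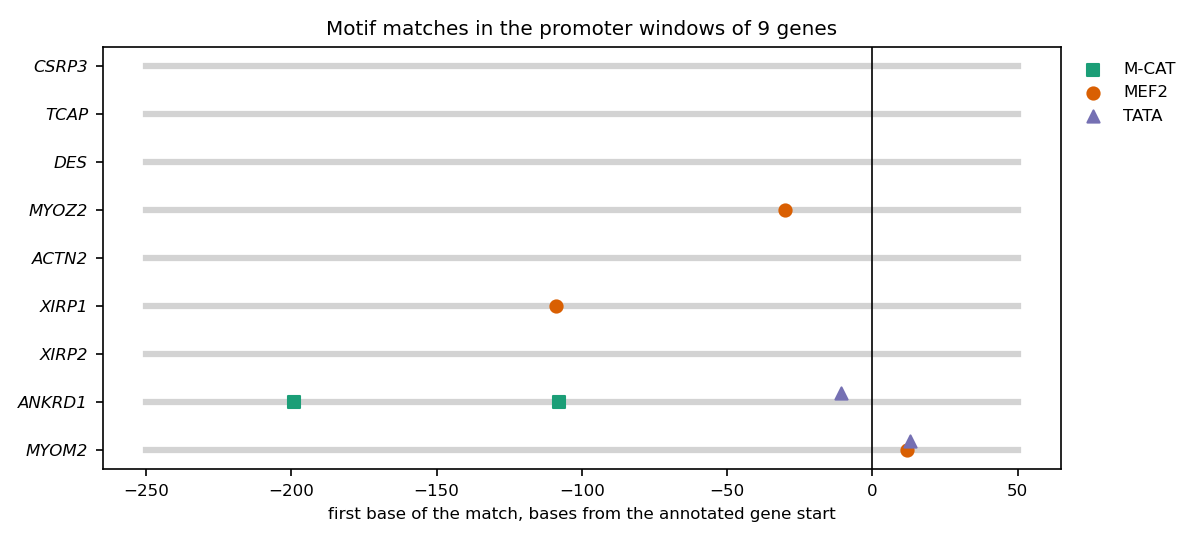
Positions of motif matches in the 300-base promoter windows of 9 of the genes, in bases from the annotated start. MEF2 matches are marked in MYOZ2, XIRP1 and MYOM2 and M-CAT matches in ANKRD1, and 5 windows carry no mark.

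Before any comparison, the genes differed widely in level. Per kilobase of RefSeq exon, the median of the 13 naive libraries was 2048 CPM per kb for DES, 1233 for MYOZ2, 1209 for TCAP, 875 for ANKRD1, 807 for ACTN2 and 622 for CSRP3. The M band pair lay together, with naive medians of 229.6 CPM per kb for MYOM1 and 226 CPM per kb for MYOM2. The Xin repeat genes were lowest, at a naive median of 73.2 CPM per kb for XIRP1 and 6.24 CPM per kb for XIRP2. These lengths are RefSeq's and not those used in counting. Over all 21 libraries MYOZ2 varied least, with a coefficient of variation of CPM of 17.6%, and XIRP2 most, with 87.6%. The highest library had 2.45 times the CPM of the lowest for MYOZ2, 11.6 times for MYOM2 and 78.3 times for XIRP2.

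**Figure D2:**
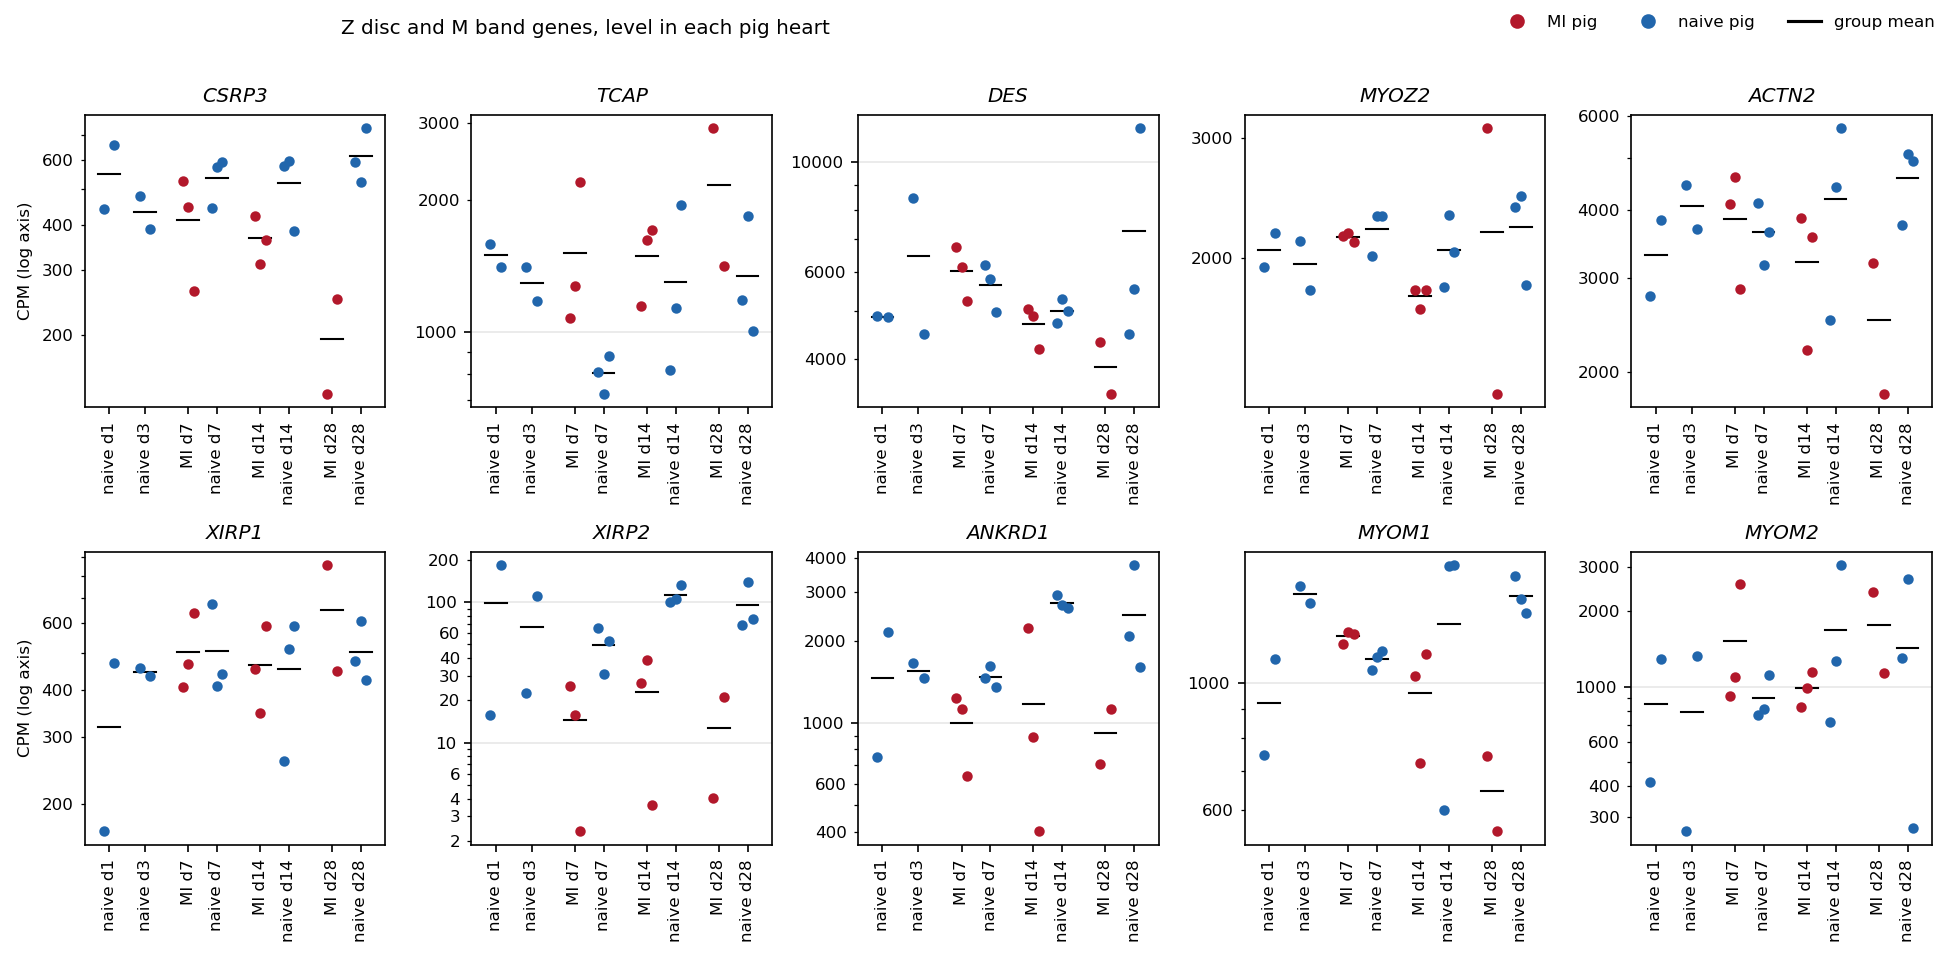
CPM of each gene in each of the 21 pig hearts (log axis), with MI pigs in red, naive pigs in blue and the group mean as a bar. XIRP2 and ANKRD1 lay lower in MI than in naive hearts with no overlap at days 7, 14 and 28. CSRP3, DES, ACTN2 and MYOM1 did so at day 28, with 2 MI and 3 naive pigs. The share of all genes with no overlap on a single day was not counted.

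CSRP3 had the lowest adjusted p of the 10 genes at day 28 and over the days, and its level was lower in MI hearts, most of all at day 28. It encodes muscle LIM protein, an adaptor of the Z disc, and lies at chr2:40219288-40240614 on the plus strand with 7 exons. At day 28 CSRP3 had 138 and 251 CPM in MI hearts, against 594, 522 and 733 CPM in naive hearts. The groups did not overlap, though the share of all genes with no overlap on a single day was not counted, here or below. The MI day 28 mean of 194 ± 79.9 CPM (SD, n = 2) was the lowest of the 8 group means. The naive day 28 mean of 616 ± 107 CPM (SD, n = 3) was the highest. CSRP3 fell by 1.67 on the log2 scale in MI hearts (SE 0.33, edgeR quasi-likelihood adjusted p = 0.017, Benjamini-Hochberg over all genes tested). At this day 1 of the 10 genes was called at an adjusted p under 0.05, against 6.86% of all genes tested (2.38% lower and 4.47% higher).

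At day 7 CSRP3 had 525, 446 and 264 CPM in MI hearts, against 443, 575 and 593 CPM in naive hearts. At day 14 it had 423, 313 and 364 CPM in MI hearts, against 578, 596 and 384 CPM in naive hearts. On both days 1 or more MI hearts lay within the naive range. The younger naive hearts had 441 and 660.1 CPM at day 1, and 479.5 and 389 CPM at day 3. In descending order of the mean the groups ran naive day 28, naive day 1, naive day 7, naive day 14, naive day 3, MI day 7, MI day 14 and MI day 28, and neighbours in that order overlapped except MI day 14 and MI day 28.

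Averaged over days 7, 14 and 28, CSRP3 also fell by 0.85 on the log2 scale (SE 0.17, edgeR adjusted p = 0.0178). The MI libraries ran from 138 to 525 CPM with a median of 338 CPM, against 384 to 733 CPM with a median of 578 CPM in the naive libraries of those days. This average shares its day 28 libraries with the comparison above. Of the 10 genes 2 were called lower in it and 0 higher, against 4.43% of all genes called (2.07% lower and 2.36% higher).

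The day 28 call of CSRP3 ended without MI day 28 replicate 1 (log2 fold change -1.28, edgeR adjusted p = 0.0629) and without naive day 28 replicate 3 (-1.52, adjusted p = 0.079), by limma voom (-1.65, adjusted p = 0.0721), with only the groups compared in the fit (-1.61, adjusted p = 0.153) and in the fit scaled to cardiomyocyte markers below, which makes 5 of 13 alternatives, while the call of the average held without each of its 17 libraries in turn. Summed cardiomyocyte markers were 41706 to 54127 CPM in MI day 28 hearts, against 81782 to 93242 CPM in naive day 28 hearts, and in such bulk tissue fewer muscle cells and less RNA per cell cannot be told apart. Per 1000 CPM of those markers CSRP3 stood at 2.55 and 6.01 in MI day 28 hearts, against 7.26, 5.59 and 8.24 in naive day 28 hearts, so the groups overlapped on that scale. A fit scaled to the markers gave a log2 fold change of -0.72 at day 28 (edgeR adjusted p = 0.142) and -0.43 over the days (adjusted p = 0.105), while the median of all genes moved to 0.90 and 0.45 on the log2 scale.

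XIRP2, a Xin actin-binding repeat gene whose protein lies at intercalated discs and the muscle periphery, was lower in all MI groups, and had the largest fold of the 10. The gene lies at chr15:73665876-73741046 on the plus strand with 9 exons. At day 7 XIRP2 had 25.2, 15.6 and 2.34 CPM in MI hearts, against 65, 30.6 and 53 CPM in naive hearts. At day 14 it had 26.4, 38.8 and 3.61 CPM in MI hearts, against 99.6, 105 and 132 CPM in naive hearts. At day 28 it had 4.01 and 21.2 CPM in MI hearts, against 68.6, 140.0 and 76.4 CPM in naive hearts. No MI heart reached the lowest naive heart of its own day.

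Over these days XIRP2 averaged 17.1 ± 13.2 CPM in MI hearts (SD, n = 8) and 85.5 ± 36.3 CPM in naive hearts (SD, n = 9). It fell by 2.33 on the log2 scale in the average of the 3 days (SE 0.60, edgeR adjusted p = 0.0404). At single days the log2 fold change was -1.79 (SE 0.96, edgeR adjusted p = 0.459) at day 7, -2.29 (SE 0.97, adjusted p = 0.911) at day 14 and -2.91 (SE 1.17, adjusted p = 0.124) at day 28, none of them called. In naive hearts of day 1, XIRP2 was at 15.6 and 183 CPM, and in those of day 3 at 22.5 and 111 CPM, so 1 pig of each of these groups lay in the range of the MI hearts. All neighbours in the order of group means overlapped.

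The call of XIRP2 was close to the threshold: it held in 7 of 25 alternatives and was lost in 18, with log2 fold changes between -2.87 and -1.82. It was lost without the 4 libraries named above (-2.54, edgeR adjusted p = 0.0806) and on leaving out any library but MI day 14 replicate 1, MI day 28 replicate 2 and naive day 14 replicate 1. Relative to the muscle markers the separation by day stayed: per 1000 CPM of markers XIRP2 was at 0.0289 to 0.333 in MI against 0.421 to 0.786 in naive day 7 hearts. It was at 0.052 to 0.701 in MI against 1.16 to 1.5 in naive day 14 hearts, and at 0.0741 to 0.509 in MI against 0.839 to 1.5 in naive day 28 hearts. With that scaling the average log2 fold change was -1.82 (edgeR adjusted p = 0.0286). That fit called 6472 of 15359 genes over the days, with an all-gene median of 0.45.

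ANKRD1, which encodes the cardiac ankyrin repeat protein, a partner of titin in the I band next to the Z disc that also acts in the nucleus, had the same arrangement of values by day as XIRP2. It lies at chr14:102603777-102612857 on the minus strand with 8 exons and overlaps RPP30 on the other strand, and since the strand setting of the counting is not given in the sources used here, reads of such overlapping genes cannot be told apart. At day 7 ANKRD1 had 1229.8, 1127 and 641 CPM in MI hearts, against 1463, 1619 and 1349.8 CPM in naive hearts. At day 14 it had 2230.4, 887 and 402 CPM in MI hearts, against 2942, 2689 and 2635 CPM in naive hearts. At day 28 it had 709.6 and 1125 CPM in MI hearts, against 2088, 3775 and 1599 CPM in naive hearts.

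Here too every MI heart lay below every naive heart of its day. XIRP2 and ANKRD1 were the 2 of the 10 genes with MI lower and no overlap on each of the 3 days, an arrangement found in 0.273% of all genes tested (42 of 15359). The fold of ANKRD1 nevertheless did not pass the test: averaged over the days it was -1.08 on the log2 scale (SE 0.30, edgeR adjusted p = 0.0519), from 1044 ± 556 CPM (SD, n = 8) in MI hearts and 2240.0 ± 823 CPM (SD, n = 9) in naive hearts. The log2 fold change was -0.56 (SE 0.50, edgeR adjusted p = 0.682) at day 7, -1.23 (SE 0.50, adjusted p = 0.909) at day 14 and -1.44 (SE 0.58, adjusted p = 0.125) at day 28. DESeq2 called the average (-1.06, adjusted p = 0.00719), with 1639 of 15295 genes called. Without MI day 14 replicate 1, the highest MI heart, edgeR called it too (-1.37, adjusted p = 0.00918). That fit called 1082 of 15333 genes, against 681 of 15359 with all libraries. Of the 17 edgeR fits with 1 library left out, only that 1 called ANKRD1. The average was also not called with RLE size factors, with no filter, by limma voom, with only the groups compared or scaled to the cardiomyocyte markers. Per 1000 CPM of cardiomyocyte markers ANKRD1 was at 13.1 and 27 in MI day 28 hearts, against 25.5, 40.5 and 18 in naive day 28 hearts, where the groups overlapped. Naive hearts of day 1 had 752 and 2158 CPM and those of day 3 had 1651 and 1458 CPM.

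TCAP, which encodes telethonin, the titin cap of the Z disc, had the highest log2 fold change of the 10 genes on each of the 3 days. It lies at chr12:22651666-22652904 on the minus strand with 2 exons. At day 7 TCAP had 1074, 1271 and 2203 CPM in MI hearts, against 811, 720.2 and 878 CPM in naive hearts, with no overlap. At day 14 it had 1143, 1621 and 1703 CPM in MI hearts, against 818, 1130.0 and 1943 CPM in naive hearts. At day 28 it had 2918 and 1415 CPM in MI hearts, against 1179, 1839 and 1005 CPM in naive hearts, and the groups overlapped on both of these days.

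None of the TCAP comparisons passed the test: the log2 fold change was 0.92 (SE 0.35, edgeR adjusted p = 0.317) at day 7, 0.20 (SE 0.35, adjusted p = 0.999) at day 14, 0.69 (SE 0.39, adjusted p = 0.261) at day 28 and 0.60 (SE 0.21, adjusted p = 0.104) over the 3 days. Without the 4 libraries that stood apart the log2 fold change of TCAP was 1.43 at day 28 and 0.86 over the days. Only 1 MI day 28 heart is left without those libraries, so no call of TCAP is given there. Those libraries held the highest TCAP and the highest MYOM2 value of MI day 7, naive day 14 and naive day 28, and the lower value of both in MI day 28. Per 1000 CPM of cardiomyocyte markers TCAP was at 53.9 and 33.9 in MI day 28 hearts. In naive day 28 hearts it was at 14.4, 19.7 and 11.3, with no overlap. The fit scaled to those markers gave TCAP a log2 fold change of 1.54 at day 28, beside an all-gene median of 0.90. It called 7712 of 15359 genes at that day.

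The structural genes of the Z disc, DES, ACTN2 and MYOZ2, differed less than the genes above in the mean over the 3 days. Their log2 fold changes in that mean were -0.30, -0.39 and -0.10. None was called on any day or over the days with TMM scaling. DES encodes desmin, the intermediate filament of muscle, at chr15:121428539-121435426 (plus strand, 10 exon blocks), and ACTN2 encodes the alpha-actinin that cross-links actin, at chr14:54670727-54742717 (minus strand, 21 exons). At day 28 DES had 4319 and 3388 CPM in MI hearts, against 4484, 5539.6 and 11735 CPM in naive hearts. At day 28 ACTN2 had 3192 and 1821 CPM in MI hearts, against 3756, 5081 and 4949 CPM in naive hearts. For both genes the day 28 groups did not overlap, a separation that was not counted over all genes. The log2 fold changes of -0.91 for DES (SE 0.35, edgeR adjusted p = 0.111) and -0.87 for ACTN2 (SE 0.36, adjusted p = 0.135) were not called. Relative to the muscle markers ACTN2 was at 59 and 43.7 per 1000 CPM in MI day 28 hearts, against 45.9, 54.5 and 55.6 in naive day 28 hearts. DES was at 79.8 and 81.2 per 1000 CPM of markers in MI day 28 hearts, against 54.8, 59.4 and 132 in naive day 28 hearts, and both genes overlapped between the groups on that scale. At days 7 and 14 the log2 fold change of DES was 0.09 and -0.09, and that of ACTN2 was 0.08 and -0.39, with SE of 0.31 for DES and 0.32 for ACTN2.

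MYOZ2 encodes calsarcin-1, which binds alpha-actinin and calcineurin, at chr8:104578942-104609367 (minus strand, 8 exon blocks, overlapping SEC24D on the other strand). At day 28 MYOZ2 had 3101 and 1266 CPM in MI hearts, against 2374, 2467 and 1831 CPM in naive hearts, so the 2 MI hearts were the highest and the lowest of all 21. Its log2 fold change over the days was -0.10 (SE 0.15, edgeR adjusted p = 0.737), and at day 28 it was -0.03 (SE 0.28, adjusted p = 0.964), without MI day 28 replicate 1 -0.79 and without replicate 2 0.51. XIRP1, the other Xin repeat gene, lies at chr13:23867476-23876850 (minus strand, 5 exons). At day 28 it had 854 and 448 CPM in MI hearts, against 476, 607 and 425 CPM in naive hearts, and over the days its log2 fold change was 0.13 (SE 0.22, edgeR adjusted p = 0.765). XIRP1 was not called in any comparison with TMM scaling. Per 1000 CPM of cardiomyocyte markers XIRP1 was at 15.8 and 10.7 in MI day 28 hearts, against 5.82, 6.51 and 4.77 in naive day 28 hearts, with no overlap. In the fit scaled to those markers it was called, at 1.22 at day 28 (edgeR adjusted p = 0.012) and 0.55 over the days (adjusted p = 0.0337). The all-gene medians there were 0.90 and 0.45, with 7712 and 6472 of 15359 genes called. The difference between XIRP1 and XIRP2 was not tested.

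Across days 7 to 28, DES ran between 3388 and 6720.2 CPM in MI hearts, against 4484 and 11735 CPM in naive hearts. ACTN2 ran between 1821 and 4604 CPM in MI hearts, against 2503 and 5687 CPM in naive hearts. MYOZ2 ran between 1266 and 3101 CPM in MI hearts, against 1816 and 2467 CPM in naive hearts. For these genes, and for XIRP1 (348 to 854 CPM in MI hearts, against 259 to 673 CPM in naive hearts), the ranges of MI and naive hearts overlapped. At day 14 MYOZ2 had 1798, 1684 and 1797 CPM in MI hearts, against 1816, 2312 and 2044 CPM in naive hearts, the 1 day on which its groups did not overlap (log2 fold change -0.23, SE 0.25, edgeR adjusted p = 0.999).

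At the M band, MYOM1 lay at the edge of the test at day 28. MYOM1 and MYOM2 encode myomesins, at chr6:103451206-103593093 (plus strand) and at chr15:33529559-33606928 (plus strand, overlapping LOC110257117 on the other strand), each with 38 exon blocks. At day 28 MYOM1 had 744 and 549.9 CPM in MI hearts, against 1536, 1401 and 1324 CPM in naive hearts, with no overlap. The log2 fold change was -1.13 (SE 0.34, edgeR adjusted p = 0.0509). DESeq2 called it (-1.07, adjusted p = 0.0119), with 2183 of 15295 genes called. It was not called by limma voom (adjusted p = 0.2), with only the groups compared (adjusted p = 0.162), without the 4 libraries that stood apart (-0.93, adjusted p = 0.224) or scaled to the cardiomyocyte markers (-0.27, adjusted p = 0.407). At day 7 MYOM1 had 1172, 1228 and 1217 CPM in MI hearts, against 1052, 1109 and 1137 CPM in naive hearts, where each MI heart was above each naive heart. At day 14 it had 1029, 725 and 1125 CPM in MI hearts, against 599, 1604 and 1607 CPM in naive hearts. The log2 fold changes of 0.13 at day 7 (SE 0.29) and -0.40 at day 14 (SE 0.29) were not called. Per 1000 CPM of cardiomyocyte markers MYOM1 was at 13.8 and 13.2 in MI day 28 hearts, against 18.8, 15 and 14.9 in naive day 28 hearts.

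The SD of CPM was larger for MYOM2 than for MYOM1 in every group but MI day 14, where it was 156 CPM for MYOM2 and 209 CPM for MYOM1. At day 28 it had 2389 and 1136 CPM in MI hearts, against 1305, 2691 and 273 CPM in naive hearts. At day 7 it had 920.4, 1092 and 2564 CPM in MI hearts, against 772, 817 and 1115 CPM in naive hearts. Its coefficient of variation of CPM over the 21 libraries was 62.1%, against 28% for MYOM1, and its log2 fold change over the days was 0.10 (SE 0.44, edgeR adjusted p = 0.916). At day 14 MYOM2 had 827, 985 and 1139.9 CPM in MI hearts, against 719, 1261 and 3061 CPM in naive hearts (log2 fold change -0.77, SE 0.73, edgeR adjusted p = 0.999). Without the 4 libraries that stood apart the log2 fold change of MYOM2 was 0.01 at day 14 (edgeR adjusted p = 1), and 1.62 at day 28 (adjusted p = 0.272) in place of 0.31. The groups overlapped on all 3 days.

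**Figure D3:**
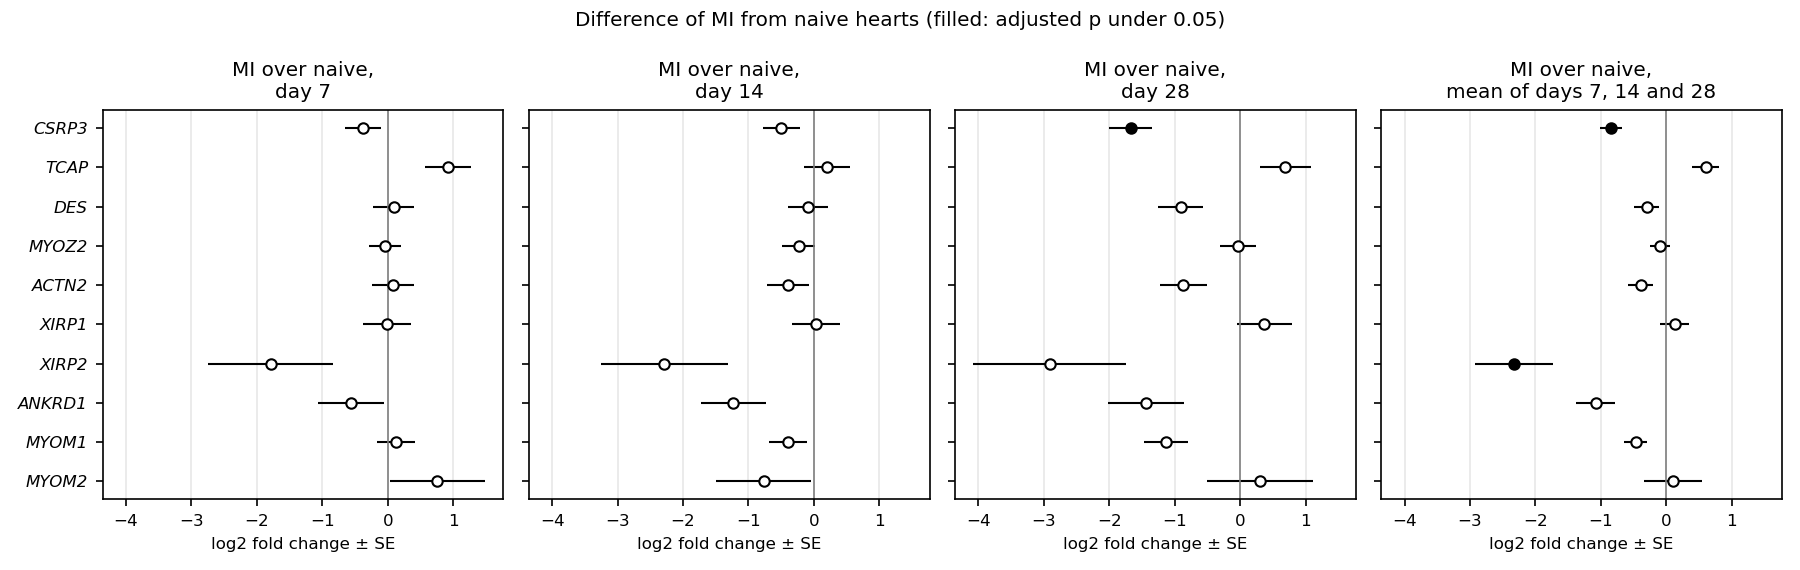
log2 fold change of MI over naive hearts, with its SE, for the 10 genes at days 7, 14 and 28 and over the mean of these days (filled points, edgeR adjusted p under 0.05). CSRP3 is filled at day 28 and in the mean, XIRP2 in the mean, and no gene at day 7 or day 14.

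At days 7 and 14 none of the 10 genes was called by edgeR, DESeq2 or limma voom, and edgeR called 0% of all genes on either day. Over all genes limma voom called 2040 of 15359 at day 7 and 0 at day 14, and DESeq2 called 263 of 15295 at day 7 and 14 at day 14. At an unadjusted edgeR p under 0.05, 1 of the 10 genes passed at day 7, among 1905 of all genes, and 2 passed at day 14, among 821. The median log2 fold change of the 10 was 0.04 at day 7, -0.40 at day 14 and -0.89 at day 28, beside medians over all genes of 0.03, -0.01 and 0.00. At day 28, 7 of the 10 were below 0 and 6 had an unadjusted p under 0.05, among 4144 of all 15359 genes. Between days the difference itself was tested: from day 7 to day 28 the MI effect changed by -1.28 on the log2 scale for CSRP3 (SE 0.43, edgeR adjusted p = 0.149) and by -1.27 for MYOM1 (SE 0.44, adjusted p = 0.157). None of the 10 was called in that test by edgeR (0.013% of all genes called, with 3 of the 10 and 2924 of all genes at an unadjusted p under 0.05), by DESeq2 (695 of 14997 genes called) or by limma voom (35 of 15359). None was called in the test of day 14 against day 7 by edgeR (0.00651% of all genes called, and 0 of the 10 and 1086 of all genes at an unadjusted p under 0.05), by DESeq2 (27 genes called) or by limma voom (5 genes called). Without the 4 libraries that stood apart, 1 MI day 28 heart is left, that with the lowest CSRP3 of all 21 (138 CPM). The change of CSRP3 from day 7 to day 28 was then -2.07 on the log2 scale.

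**Figure D4:**
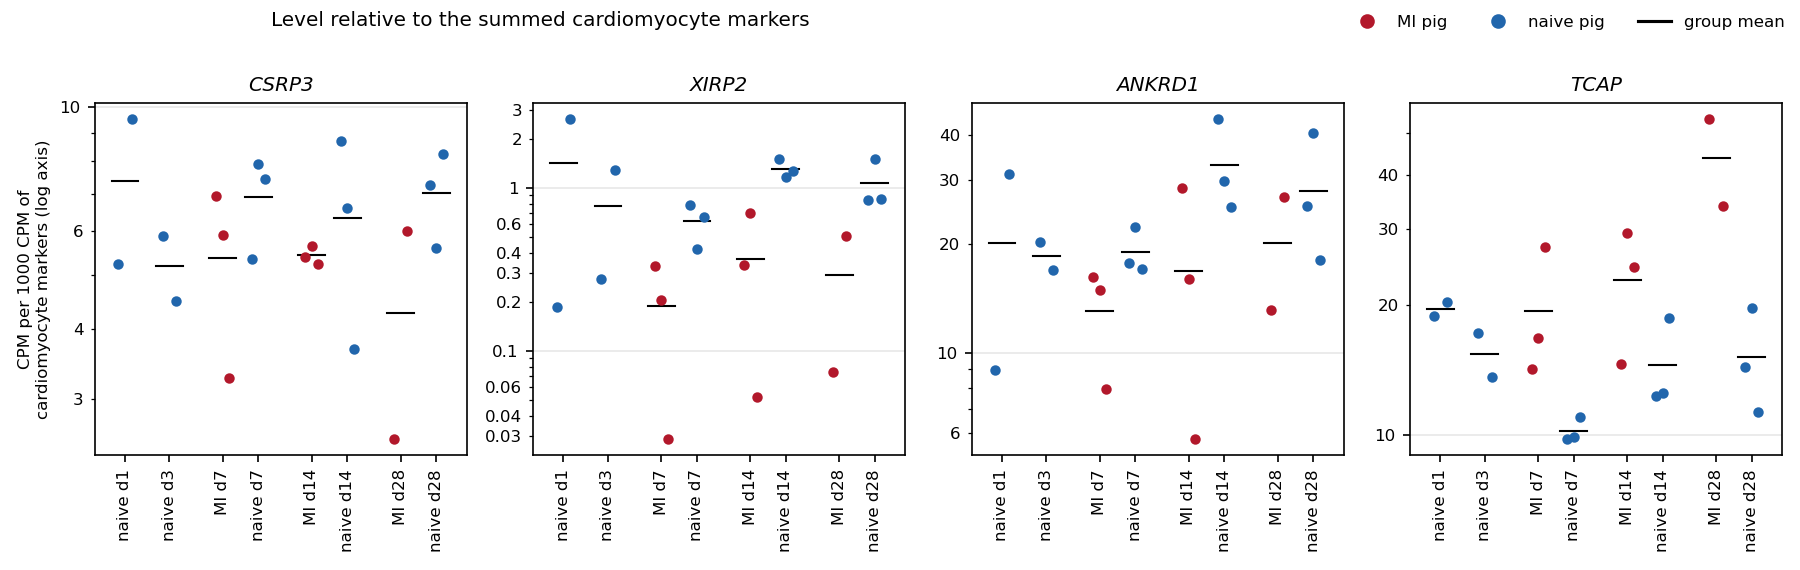
CPM of CSRP3, XIRP2, ANKRD1 and TCAP per 1000 CPM of summed cardiomyocyte markers in each of the 21 pig hearts (log axis, MI pigs in red, naive pigs in blue, the group mean as a bar). XIRP2 was lower in MI hearts with no overlap at days 7, 14 and 28. TCAP was higher with no overlap at days 7 and 28, and CSRP3 and ANKRD1 overlapped at day 28. In the fit scaled to those markers the all-gene median at day 28 was 0.90 on the log2 scale. The share of all genes with no overlap on this scale was not counted.

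Other marker lists also differed at day 28, and their part in these results was not tested. All 9 macrophage markers had a row and summed to 285 and 3011 CPM in MI day 28 hearts, against 61.5 to 336 CPM in naive day 28 hearts. The 8 fibroblast markers summed to 1750.4 and 20119 CPM in MI day 28 hearts, against 3750.3 to 6465 CPM in naive day 28 hearts. The high macrophage, fibroblast and lymphocyte sums were those of MI day 28 replicate 2, whereas replicate 1 had the high smooth muscle sum of 1191 CPM (334 to 551 CPM in naive day 28 hearts) and the lower CSRP3. The 2 MI day 28 hearts were thus high in different lists.

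With age alone edgeR called no gene of the table in naive hearts (0% in each of the 5 comparisons of ages by edgeR, with 177 to 1357 genes at an unadjusted p under 0.05, and 0 of the 10 genes called by any of the 3 tools). Over all genes limma voom called 918 for day 14 against day 7 and 0 in the other 4, and DESeq2 called 90 for day 14 against day 7, 12 for day 7 against day 1, 3 for day 3 against day 1 and 0 in the other 2. The largest of these differences at day 28 over day 1 was 0.77 on the log2 scale, the lowest was -0.16, and 8 of the 10 genes were above 0, with a median of 0.52 beside 0.04 over all genes. TCAP had a log2 fold change of -0.90 in naive day 7 over naive day 1 hearts (SE 0.39, edgeR adjusted p = 0.91) and was the 1 gene of the 10 with an unadjusted p under 0.05 in any of these comparisons. The spread between the 2 pigs of naive day 1 was wide for several genes: replicate 1 was at 169 CPM for XIRP1, the lowest of all 21 libraries, and replicate 2 at 469.7 CPM. MYOM1 was at 747 and 1100.4 CPM and MYOM2 at 415 and 1294 CPM in these pigs, and in naive day 3 hearts MYOM2 was at 264 and 1322 CPM. Naive day 7 hearts had TCAP at 811, 720.2 and 878 CPM, against 1587 and 1406 CPM in naive day 1 hearts. Among MI hearts none of the 10 was called between day 14 and day 7 (0% of all genes, and 0 of the 10 at an unadjusted p under 0.05) or between day 28 and day 14 (0.0391% of all genes, 0.013% lower and 0.026% higher, and 1 of the 10 at an unadjusted p under 0.05, CSRP3, with a log2 fold change of -0.92, SE 0.32 and edgeR adjusted p = 0.241). DESeq2 and limma voom called 0 of the 10 in both, with 33 and 278 of all genes called by DESeq2 and 0 by limma voom.

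Of 42 other genes of the Z disc, the M band and linked structures, 39 were tested, LDB3 and TTN were not matched by symbol, and ANKRD23 did not pass the filter. At day 28, 4 of the 39 were called lower and 0 higher, against 2.38% lower and 4.47% higher over all genes. Called or not, 32 were below 0 and 7 above, with a median log2 fold change of -0.52 beside 0.00 over all genes. TRIM55, a ubiquitin ligase of the sarcomere, had 99.2 and 108 CPM in MI hearts, against 242, 229 and 269 CPM in naive hearts (log2 fold change -1.25, SE 0.26, edgeR adjusted p = 0.0195). The adaptor gene SORBS2 had 493 and 478 CPM in MI hearts, against 1063, 910.0 and 1541 CPM in naive hearts (log2 fold change -1.27 with SE 0.34, edgeR adjusted p = 0.037). NEXN, which encodes the actin-binding Z disc protein nexilin, had 370.2 and 354 CPM in MI hearts, against 576, 757 and 828 CPM in naive hearts (log2 fold change -0.99 with SE 0.28, edgeR adjusted p = 0.0462).

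TRIM55, SORBS2 and NEXN did not overlap between the groups at day 28. They were named for their adjusted p in those same libraries, so this is no further test. Over the 3 days 2 of the 39 were called lower and 1 higher, against 2.07% lower and 2.36% higher over all genes. Called or not, 29 were below 0 and 10 above, with a median of -0.18 beside 0.03 over all genes. MYOT, the gene of the Z disc protein myotilin, fell by 1.03 on the log2 scale (SE 0.26, edgeR adjusted p = 0.04). MYOZ1, the calsarcin of fast skeletal muscle, rose by 2.46 on the log2 scale (SE 0.58, edgeR adjusted p = 0.0302) from low levels, 0.37 to 13.1 CPM in MI hearts against 0.09 to 1.74 CPM in naive hearts. In the other comparisons 0 of the 39 were called by edgeR, with 0 to 10 at an unadjusted p under 0.05.

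Genes whose log2 CPM most resembled that of each of the 10 across the 21 libraries were listed by Pearson's r among 9457 named genes, as a description, since the libraries share groups, depth and tissue makeup. XIRP2 was most like ACTA1 (r = 0.91), the skeletal alpha-actin, IL2RB (0.85) and ANKRD1 (0.85). ANKRD1 was most like ACTA1 (r = 0.87), XIRP2 (0.85) and NLRX1 (0.85). For no other of the 10 was a second one of the 10 among its 3 most alike genes. CSRP3 was most like MMP15 (r = 0.90), CNIH1 and KDELC1, ACTN2 most like ATG4D (r = 0.93) and UPRT, and MYOM1 most like PRKAA2, MIGA2 and IARS2 (r = 0.93 each). TCAP was most like SSBP3 (r = 0.86), DES most like MSTO1 (r = 0.87), MYOZ2 most like KBTBD2 (r = 0.85), XIRP1 most like SAMD4B (r = 0.87) and MYOM2 most like WWP2 (r = 0.90).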

How the data were processed

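RNA-seq counts of 25880 genes in 21 pig heart libraries were used as deposited. Per the submitters' processing notes the authors used Trim Galore, STAR 2.5.2, HTSeq 0.6.1 and DESeq2 with build Sscrofa11.1; the annotation release and strand setting are not stated in what was used here, and the deposited values are whole-number counts per gene, not normalized. Groups came from the labels. The 10 genes, the marker lists and the list of 42 other genes were chosen with earlier results of these data known, and so were the 4 libraries that stood apart.

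Counts were tested with edgeR 4.0.16 (R 4.3.3): filterByExpr over the 8 groups, TMM scaling, robust quasi-likelihood F tests in 1 fit of 21 libraries with 13 residual degrees of freedom, and Benjamini-Hochberg adjustment over 15359 genes, called at an adjusted p under 0.05. CPM used TMM-scaled library sizes, and log2 CPM for likeness a prior count of 2. SE is the log2 fold change over the root of F. The test was tested on simulated data. Depth was 37002909 to 95559841 counts. Labels name 1 pig per library; how pigs were spread over litters or runs is not given.

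All 10 genes were named, and of the other list up to 4 called genes with the smallest adjusted p per comparison. A few named items and 1 promoter window are not reported here. Likeness was searched among genes with a symbol and a mean of at least 5 CPM. Alternatives were RLE size factors, DESeq2 1.42.0, limma 3.58.1 voom with sample weights, no filter, fits of only the groups compared, the 4 libraries left out or given a term, each library left out, and, added after seeing the data, scaling to cardiomyocyte markers. Loci and promoters came from the RefSeq annotation of Sscrofa11.1.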

Additional observations from a re-analysis of the deposited data

How the results depend on the processing

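No paired analysis was possible because the labels name a different pig for each library. The replicate numbers used here are not in the labels and only count the pigs within a group. Of 600 values of single genes under the alternatives, 526 kept their direction and side of the threshold. These cover MI against naive by day and averaged, the day 28 minus day 7 effect, and naive day 28 against day 1. Of the fits with 1 library left out they hold only the lowest and highest fold. Most were uncalled in the main fit, so keeping their side meant staying uncalled. At day 28 the count of the 10 genes called was 1 by edgeR (CSRP3, 1053 of all genes). It was 2 by DESeq2 (CSRP3 and MYOM1, 2183 of all genes) and 0 by limma voom (46 of all genes). It was 0 with the groups compared fitted alone (2 of all genes) and 0 to 1 with each naive day 28 library left out. Without the 4 libraries that stood apart 1 MI day 28 heart is left, with log2 fold changes of -2.26 for CSRP3 and 1.43 for TCAP. Scaling to cardiomyocyte markers gave a count of 3 (TCAP, MYOZ2 and XIRP1, 7712 of all genes, with the all-gene median at 0.90). That scaling reversed MYOZ2 at day 28, to 0.79 (adjusted p = 0.0212). For CSRP3 at day 28 the adjusted p was 8.95e-05 to 0.153 over the alternatives. Over the 3 days the count, 2 (CSRP3 and XIRP2), was 1 (CSRP3) with no filter, with a term for the 4 libraries and by limma voom, 4 by DESeq2 (CSRP3, TCAP, XIRP2 and ANKRD1; 1639 of all genes against 681 by edgeR), and 1 to 3 with each library left out. Scaled to the markers, ACTN2 (0.03) and DES (0.12) over the days lay above 0, uncalled either way. For the day 28 against day 7 difference of effects, and between MI day 28 and day 14, the count was 0. This held under all alternatives but the fit without the 4 libraries, which holds 1 MI day 28 heart. The causes were not tested. With 2 MI pigs at day 28, that day's MI spread rests on the pooled estimate when 1 is left out.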
